A study of Mus musculus with 8 samples.

Results

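The replication-dependent histone genes of the mouse were examined in open-chromatin maps of granule neuron progenitors (GNPs) with and without Chd7, an ATP-dependent chromatin remodeller. The 67 genes are the protein-coding genes of the GENCODE annotation of mm10 whose symbols begin Hist1h, Hist2h, Hist3h or Hist4h, out of 21951 protein-coding genes. They comprise 6 genes for the linker histone H1, 18 for H2A, 18 for H2B, 12 for H3 and 13 for H4. By locus, 54 lie in Hist1 on chromosome 13, 10 in Hist2 on chromosome 3, 2 in Hist3 on chromosome 11 and 1, Hist4h4, on chromosome 6. Within 1 kb of their transcription start sites lay 64 of the 152984 peaks of the WT list, 52 of the 106974 of the het list and 69 of the 174407 of the mutant list.

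Replication-dependent histone genes supply the bulk of new histones when DNA is copied in S phase. They are small, mostly lack introns, sit in clusters in which H2A and H2B genes often share one promoter region and point away from each other, and end their mRNAs in a stem-loop in place of a poly(A) tail. GNPs divide in the outer layer of the early postnatal cerebellum under Sonic hedgehog signalling.

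Tn5-accessible DNA was sequenced from P7 GNPs enriched on a Percoll gradient, with 3 libraries of WT cells, 3 of homozygous mutant cells and 2 of heterozygous cells, and the authors called 1 peak list per genotype on the pooled libraries. In the study WT cells were Chd7 f/f without Cre, mutant cells Atoh1-Cre::Chd7 f/f and het cells Atoh1-Cre::Chd7 f/+. The labels give the strain as C56Bl6/J, and the postnatal day as 7. Atoh1-Cre acts in the granule lineage and recombines less in the posterior lobe, and replicates of WT and mutant were described as technical. The lists rest on 50394313 WT, 30923002 het and 51030229 mutant tags. Since each list is 1 pool, no value below has a replicate error, no difference between genotypes could be tested, and confidence intervals cover counting error only. Het peaks were made with other read settings, so het values are set beside the others without a fold. All 10 GNP markers examined (among them Atoh1, Pax6 and Zic1) had a peak near their start in each list. Over all protein-coding genes, 65.3% had one in WT, 63.4% in het and 66.1% in mutant. Of the markers of other cells, 3 of 4 for Purkinje cells, 1 of 4 for oligodendrocytes, 2 of 4 for astroglia, 1 of 4 for microglia and 2 of 3 for endothelium had one in each list, and those for interneuron progenitors 3 of 3 in WT and mutant and 2 of 3 in het. In pooled cells, fewer cells with an open promoter and less opening in each cell cannot be told apart.

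Some promoter letters were more frequent in some histone classes than in others. The following 4 promoters are shown for holding the tallest WT peak of H1, H2A and H4 and an H3 peak at its class median. They are the 300-base promoter entries of RefSeq (build GRCm38.p6), 250 bases before and 50 after the RefSeq start, written 5′ to 3′ on the gene strand. Capitals mark every match on either strand to 6 motifs. They are the CCAAT box with the letters CCAAT, the TATA box searched as TATAAA, the octamer ATTTGCAT, the E2F-like letters TTTNNCGC, the H1 box with the letters AAACACA, and the letters GGTCCG known from H4 promoters. On the opposite strand the CCAAT box reads ATTGG. No motif lies inside another.
Hist1h1e, chr13:23622509-23622808, minus strand: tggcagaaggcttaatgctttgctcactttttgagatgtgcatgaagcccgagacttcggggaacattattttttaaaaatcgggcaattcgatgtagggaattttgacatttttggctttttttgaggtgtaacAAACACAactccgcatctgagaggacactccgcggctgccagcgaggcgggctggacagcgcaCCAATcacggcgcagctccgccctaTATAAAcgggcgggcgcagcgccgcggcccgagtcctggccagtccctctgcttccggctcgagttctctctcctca
Hist1h2ah, chr13:22035594-22035893, minus strand: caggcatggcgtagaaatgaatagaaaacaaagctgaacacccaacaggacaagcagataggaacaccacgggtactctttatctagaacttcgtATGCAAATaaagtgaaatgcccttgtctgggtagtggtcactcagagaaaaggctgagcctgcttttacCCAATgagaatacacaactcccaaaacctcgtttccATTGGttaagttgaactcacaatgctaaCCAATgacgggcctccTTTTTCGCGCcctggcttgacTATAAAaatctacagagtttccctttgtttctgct
Hist1h3e, chr13:23562336-23562635, minus strand: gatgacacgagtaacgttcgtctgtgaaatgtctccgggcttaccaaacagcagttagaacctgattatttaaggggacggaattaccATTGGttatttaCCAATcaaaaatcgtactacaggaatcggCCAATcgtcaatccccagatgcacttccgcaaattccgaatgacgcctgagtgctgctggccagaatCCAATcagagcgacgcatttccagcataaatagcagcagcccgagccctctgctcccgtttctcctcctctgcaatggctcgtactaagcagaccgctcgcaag
Hist1h4c, chr13:23698409-23698708, minus strand: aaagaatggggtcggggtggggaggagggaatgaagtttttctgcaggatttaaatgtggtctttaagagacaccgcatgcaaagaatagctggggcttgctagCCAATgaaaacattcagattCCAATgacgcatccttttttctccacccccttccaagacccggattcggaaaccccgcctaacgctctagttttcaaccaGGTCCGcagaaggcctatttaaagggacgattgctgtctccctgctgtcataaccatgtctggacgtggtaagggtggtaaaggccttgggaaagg

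In Hist1h1e the H1 box began at -115, CCAAT at -52 and TATAAA at -27 from the RefSeq start. Hist1h2ah, whose window reaches into the promoter of its divergent partner Hist1h2bk, held the octamer at -155, 3 CCAAT boxes and 2 overlapping E2F-like matches. In Hist1h4c, GGTCCG began at -46. A match is a description of letters and not evidence of a bound factor.

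Over the 62 members with a promoter entry, the shares of these letters differed most between H4 and the other classes (see the bars by histone class). They did not tell all classes apart. CCAAT was present in all 6 H1, all 18 H2A, all 16 H2B and all 10 H3 promoters but in 3 of 12 H4 promoters, against 37.4% of all 32851 promoters of the same length. GGTCCG showed the reverse, in 11 of 12 H4 promoters, 1 of 16 H2B, 1 of 10 H3 and none of the H1 and H2A promoters, against 8.25% of all. The octamer was found in 7 H2A and 7 H2B promoters and in no other class, against 1.74% of all. It lay on the opposite strand in each of these H2A promoters and on the gene strand in each of these H2B promoters. Windows of divergent pairs can overlap, so the same site can count for both genes. The octamer at -155 in Hist1h2ah and at -30 in Hist1h2bk is such a site. The H1 box was found in 5 of 6 H1 promoters, 2 H2A and 2 H2B promoters, against 7.18%. TATAAA, on either strand and at any position, was found in 56.5% of members against 13.6% of all promoters. Its matches in H4 promoters began between -250 and 41, and in H2B some were on the opposite strand, as at -198 in Hist1h2bk. The E2F-like letters were found in 30.6% of members against 5.17% of all. They were in 8 of 18 H2A, 8 of 16 H2B, 2 of 12 H4, 1 of 6 H1 and no H3 promoter. In H2B every E2F-like match was on the opposite strand. Hist2h2be, Hist2h4, Hist1h3f, Hist1h2bc and Hist1h3a had no entry.

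**Figure D1:**
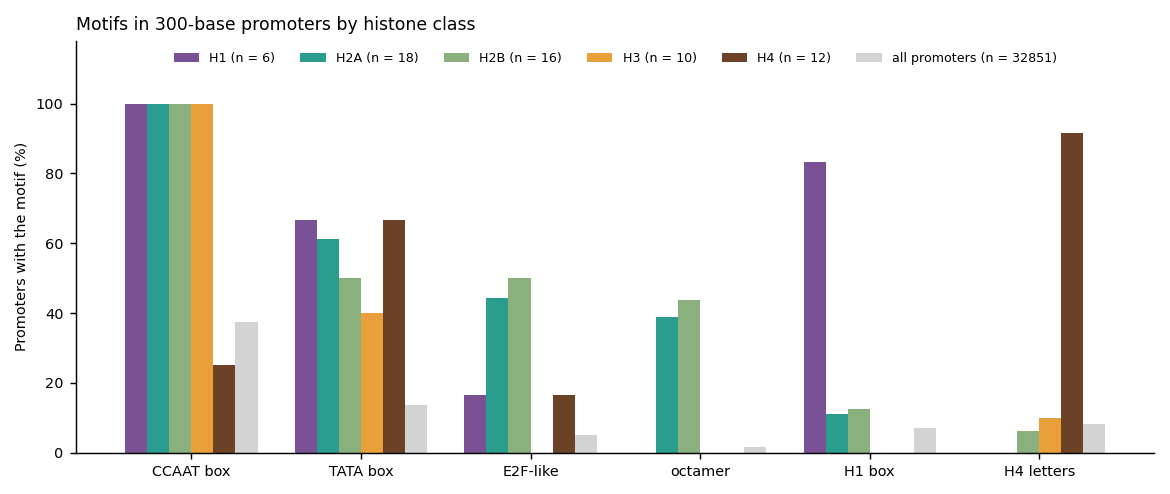
Share of RefSeq promoters (%, 300 bases) holding each of 6 motifs, for the 5 histone classes and for all 32851 promoters of that length. Matches on either strand and at any position count. CCAAT is at 100% in H1, H2A, H2B and H3 and at 25% in H4, while the H4 letters are at 91.7% in H4.

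The letters at the other end of the genes were shared by every class. Within 150 bases after the stop codon, 61 of 67 members held GGC, any base, CTTTT, any base, AG, any base and GCC, letters that pair into the histone stem-loop, at a median of 31 bases after the stop (22 to 59). Of 21685 other protein-coding genes, 2 held them, H2afx, which encodes the variant H2A.X, and H2bfm, a histone H2B family gene. The following 3 sites (mm10, gene strand, stem-loop in capitals, coordinates of the capitals) are shown because the 2 stems divide H4 from the other classes.
Hist1h2ah, chr13:22035127-22035142, minus strand: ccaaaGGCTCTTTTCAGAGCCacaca
Hist1h3e, chr13:23561903-23561918, minus strand: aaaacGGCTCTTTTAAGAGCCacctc
Hist1h4m, chr13:21812129-21812144, plus strand: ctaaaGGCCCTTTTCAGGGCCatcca

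In the 10 H4 genes with a match the stem read GGCCC before the loop, as in Hist1h4m, and in the 51 other genes with one it read GGCTC. The commonest form, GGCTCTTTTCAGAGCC, was found in 41 members and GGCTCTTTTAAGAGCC in 9.

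Most of the promoters were open in each genotype. A peak lay within 1 kb of the start of 59 of 67 members in WT (88.1%, Wilson 95% CI 78.2 to 93.8%), 57 in het (85.1%, 74.7 to 91.7%) and 59 in mutant (88.1%, 78.2 to 93.8%). Over all protein-coding genes the shares were 65.3, 63.4 and 66.1%. The intervals treat members as independent, although many share a peak, and they hold no error between libraries or genotypes. The same 57 members had one in all 3 lists. No member had a WT peak without a mutant peak (background 1.99%) or the reverse (3.19%), and 2 members, Hist2h2aa2 and Hist2h3c1, had a WT peak without a het peak (background 4.52%). The same 2 had a mutant peak without a het peak (background 5.18%), and no member had a het peak without a WT peak (1.63%). Around the start of Hist2h2aa2 and of Hist2h3c1, 82.2% of the 76-base stretches recur in the genome. The het list also rests on fewer tags and another aligner. Peaks clustered just before the start, with 35 of the 64 WT summits in the 300 bases upstream of the nearest member and a median summit position of -36 bp. The median was -53.5 bp in het and -35 bp in mutant.

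Peak height is given as the summit pileup, the number of extended tags stacked at the summit, divided by the genome-mean pileup of the list, for the tallest peak within 1 kb. The median height of members was 35.7 (WT), 38.9 (het) and 37.3 (mutant), against 30.96, 31.9 and 32.5 over all protein-coding genes with a peak. Fold enrichment, the authors' ratio of pileup to local background, ran the other way, with medians of 7.64, 7.79 and 7.56 for members against 9.001, 9.09 and 9.26 for all. The local background implied by the 2 values was higher at members, with a WT median of 7.43 tags against 4.49. The part of neighbouring peaks in this background was not tested. By rank within the list (the percentage of peaks at or below the −log10 q of the peak) the members were ordinary promoters, at a median of 91.1 (WT), 89.4 (het) and 91.9 (mutant) against 91.1, 88.8 and 92.3 over all genes with a promoter peak.

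**Figure D2:**
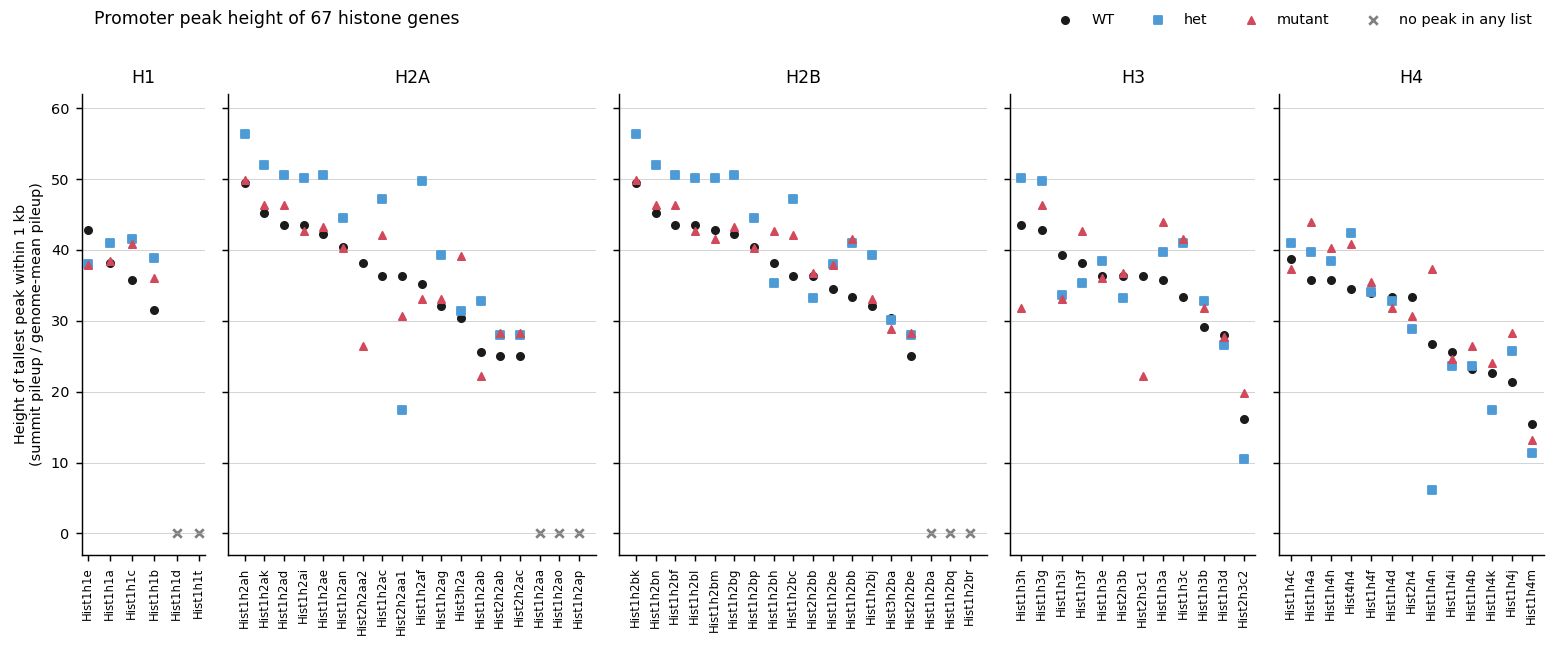
Height of the tallest peak within 1 kb of each of the 67 genes, in multiples of the genome-mean pileup of its list, by histone class and ordered by WT height. Circles are WT, squares het and triangles mutant, each from 1 pooled list, and crosses at 0 mark the 8 genes with no peak in any list. WT and mutant symbols mostly lie close together, with Hist2h3c1, Hist2h2aa2, Hist1h3h and Hist1h4n apart, of which Hist2h3c1 and Hist1h3h read different peaks in the 2 lists.

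Among the 6 genes for H1, which binds linker DNA between nucleosomes, 4 had a peak. Hist1h1e was the tallest in WT, with a summit pileup of 72 (WT), 87 (het) and 63 (mutant), and Hist1h1b the lowest in WT, with 53, 89 and 60 in the same order. In het Hist1h1e was the lowest of the 4, and in mutant Hist1h1c and Hist1h1a were above it. The tallest peak near Hist1h1b had its summit more than 1 kb downstream of the start, and the peak nearest its start had 33, 52 and 41. Hist1h1e had a WT peak of its own, with its summit 23 bp upstream, and a second WT peak lay at the adjacent start that GENCODE gives Hist1h2be, for which RefSeq also lists a start 35154 bp away. In het and mutant 1 wide peak covered both, so its mutant value was read at a summit 1374 bp downstream of the Hist1h1e start. Near the distant RefSeq start of Hist1h2be lay another peak, of 54 (WT), 71 (het) and 56 (mutant). The Hist1h2be values in the class medians are those at the GENCODE start.

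H2A and H2B, which pair as dimers in the nucleosome, are encoded by 36 of the members, and 15 of 18 genes of each had a WT peak. The tallest of both was the single peak between Hist1h2ah and Hist1h2bk, whose starts lie 302 bp apart on chromosome 13. Its pileup was 83 (WT), 129 (het) and 83 (mutant), at rank 98.3, 98.2 and 98.4. The lowest of both in WT were 2 neighbouring Hist2 peaks with a pileup of 42 each. The peak at Hist2h2ab had 64 in het and 47 in mutant, and the peak between the divergent Hist2h2ac and Hist2h2be had 55 and 45. In het the lowest H2A value was 40, at Hist2h2aa1, and in mutant 37, at Hist1h2ab. Het had 14 H2A and 15 H2B genes with a peak.

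In all, 26 members formed 13 divergent pairs with starts at most 1 kb apart, 12 of H2A with H2B and 1 of Hist1h3f with Hist1h2bh. The 20 of them with a peak had a median WT height of 41.4, against 34.5 in the 39 other members with a peak. The same medians were 48.7 and 33.6 in het and 42.7 and 35.5 in mutant, so the order was alike in the 3 lists. With the peaks nearest the start the WT medians were 41.4 and 33.3. Both genes of a pair mostly read the same peak and are not separate measurements. In all, 30 of the 59 members shared their tallest WT peak with another member, and the 59 rest on 43 peaks.

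All 12 genes for H3, a core histone whose tail carries many regulatory modifications, had a peak in WT and mutant and 11 in het. Judged by the tallest peak within 1 kb, Hist1h3h was highest (pileup 73 in WT, 115 in het and 53 in mutant), but the WT and het value belonged to the neighbouring peak between Hist1h2bl and Hist1h2ai. Its own peak, with the summit 35 bp before the start in WT, had 49, 62 and 53. By the peak nearest each start, Hist1h3g was highest in each list, with 72, 114 and 77. The lowest in WT was Hist2h3c2, with 27 in WT and 33 in mutant at summits 31 and 19 bp upstream. The nearest het peak, of 24, lay 620 bp from this start and is a different peak.

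All 13 genes for H4 had a peak in each list, with a median height of 33.3, 28.8 and 31.9 in the order WT, het and mutant, while the medians of H2B were 38.1, 44.5 and 41.5. With the peak whose summit lay nearest each start in place of the tallest, the H4 medians were 30.96, 27.1 and 31.9 and the H2B medians 36.3, 44.5 and 41.5. The H3 medians, 36.3, 35.4 and 34.6 for the tallest peak, were then 29.2, 32.7 and 31.9, so the order of H3 and H4 in WT turned with the choice of peak. Hist1h4c was the tallest H4 peak in WT, with a pileup of 65 (WT), 94 (het) and 62 (mutant), and Hist1h4m the lowest in WT and mutant, with 26 and 22. Hist4h4, alone on chromosome 6, had 58, 97 and 68.

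Hist1 consists of 4 groups of genes more than 100 kb apart. The largest, chr13:23531050-23764406, holds 29 members and 1 other protein-coding gene, Hfe, a regulator of iron uptake. It held 37 WT peaks, 32 het peaks and 41 mutant peaks, of which 27, 25 and 29 lay within 1 kb of a member. Starts here were those of GENCODE, so peaks at the other RefSeq starts of Hist1h1d and Hist1h2be were not counted as near a member. The group at chr13:21715763-21837530 holds 18 members and had 16, 12 and 17 peaks, of which 14, 12 and 15 lay near a member. Hist2, at chr3:96219865-96270132, held 15 WT, 9 het and 15 mutant peaks. Per 100 kb, these groups had 15.9, 13.1 and 29.8 WT peaks, against 5.67 over the effective genome. The groups end at their outer histone genes and most of their peaks lay near a member start. The genome figure takes in all regions, so it is not a matched baseline. The group at chr13:23933773-23934851, with the testis genes Hist1h2ba and Hist1h2aa, had none in any list.

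**Figure D3:**
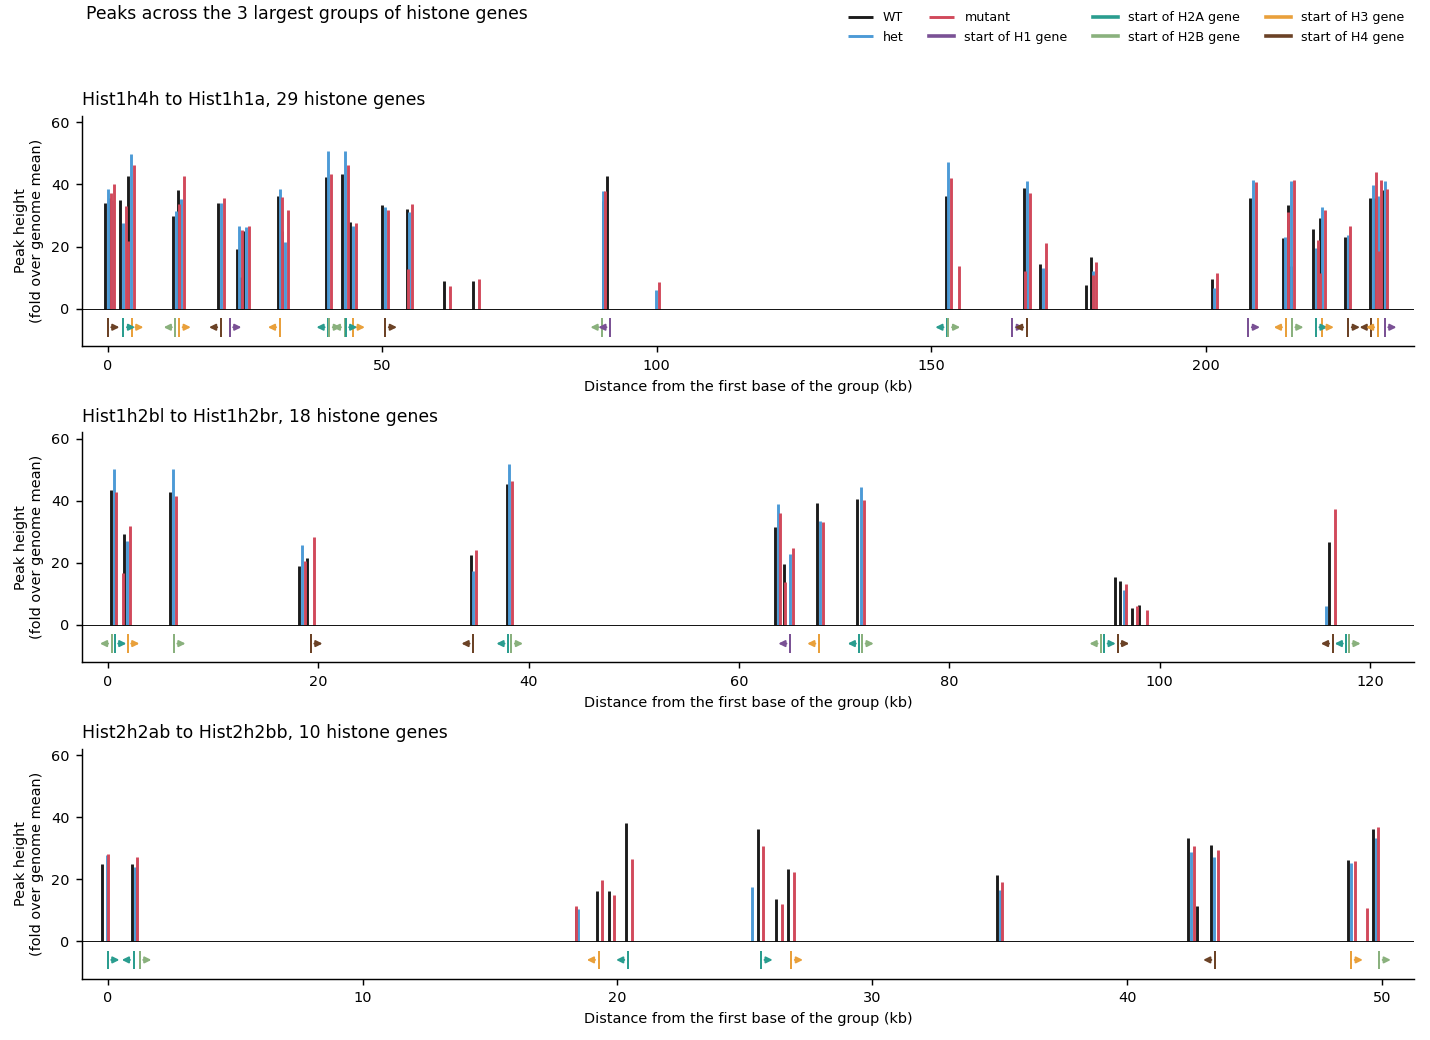
Every peak of the 3 lists (line height, in multiples of the genome-mean pileup) along the 3 groups with the most histone genes, against distance from the first base of the group in kb. Lines of WT, het and mutant are moved slightly apart for view, and arrows below mark starts and direction of genes by class. Lines stand over most arrows, are low or missing over the genes at the right of the second group, and het lines are missing near 20 kb of the third.

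The 8 members without a peak in any list were of 3 kinds. The first was Hist1h1t, Hist1h2aa and Hist1h2ba, which encode histones of the testis. The nearest WT, het and mutant peaks lay 2184, 2091 and 1701 bp from the start of Hist1h1t, and more than 4 kb from the start of the other two. None of the stretches of 76 bases around these 3 starts recurs in the genome. The Hist1h1t promoter, shown because it has an H1 box and a CCAAT box as Hist1h1e does and yet no peak, is given in the same form.
Hist1h1t, chr13:23695561-23695860, plus strand: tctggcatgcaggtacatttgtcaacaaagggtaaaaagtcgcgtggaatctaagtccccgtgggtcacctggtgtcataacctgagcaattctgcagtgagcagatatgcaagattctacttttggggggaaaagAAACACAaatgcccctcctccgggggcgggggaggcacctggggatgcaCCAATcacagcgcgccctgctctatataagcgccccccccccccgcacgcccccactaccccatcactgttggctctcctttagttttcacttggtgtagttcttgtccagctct

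The H1 box began at -114 and CCAAT at -65. In Hist1h1e, with a WT pileup of 72, they began at -115 and -52.

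The second kind was the divergent pairs Hist1h2bq with Hist1h2ao and Hist1h2ap with Hist1h2br, in a duplicated stretch of the 18-gene group. Every stretch of 76 bases (the mutant tag size) and of the longer WT and het tag size within 250 bp of these 4 starts recurs in the genome. The nearest WT peaks were 1229 to 1507 bp away. The promoter entries of Hist1h2ao and Hist1h2ap, shown because their letters are the same over a run of 200 bases, differ in where RefSeq places the start.
Hist1h2ao, chr13:21810117-21810416, plus strand: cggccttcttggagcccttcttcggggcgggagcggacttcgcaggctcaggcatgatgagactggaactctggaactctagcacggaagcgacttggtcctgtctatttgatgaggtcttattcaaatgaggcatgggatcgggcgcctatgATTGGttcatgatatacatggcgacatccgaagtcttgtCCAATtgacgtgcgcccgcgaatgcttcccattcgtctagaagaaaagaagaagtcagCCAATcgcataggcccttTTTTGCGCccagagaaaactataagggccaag
Hist1h2ap, chr13:21833426-21833725, minus strand: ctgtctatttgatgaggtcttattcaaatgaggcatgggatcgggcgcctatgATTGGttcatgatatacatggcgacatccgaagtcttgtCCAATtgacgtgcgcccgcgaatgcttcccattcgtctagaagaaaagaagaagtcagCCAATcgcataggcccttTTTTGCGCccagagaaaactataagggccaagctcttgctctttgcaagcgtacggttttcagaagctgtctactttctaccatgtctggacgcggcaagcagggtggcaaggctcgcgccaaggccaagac

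The entries of Hist1h2bq and Hist1h2br were identical over all 300 bases. A read that lies wholly in such a stretch cannot be placed by its own letters, so closed chromatin and reads that were not placed cannot be told apart at these 4 genes. The third kind was Hist1h1d alone. Its GENCODE record begins 1770 bp before the RefSeq start, and at the RefSeq start it had a peak in each list, with a pileup of 32 (WT), 61 (het) and 42 (mutant). The ratio of mutant to WT height was 1.33 (exact 95% CI 0.817 to 2.17), and the interval held 1. These values are of the peak nearest the RefSeq start. The tallest peak within 1 kb of it had 42, 61 and 44, a log2 ratio of 0.08. With RefSeq starts, 60, 58 and 60 members had a promoter peak.

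The pooled lists of WT and mutant differed little at these promoters. In the 59 members with a peak in both, the median log2 ratio of mutant to WT height was 0.03 (quartiles -0.04 and 0.18), against 0.09 over 14043 protein-coding genes. Mutant height was above WT height in 38 members (64.4%, background 71.1%). By class the median was 0.10 for H1, 0.03 for H2A, 0.03 for H2B, 0.06 for H3 and 0.09 for H4. No member was more than 1.5-fold higher in mutant (background 1.64%) and 1 was more than 1.5-fold lower (background 0.385%). Past 0.32 on the log2 scale, 3 were higher (background 9.78%) and 3 lower (background 2.26%). In 58 of the 59 members the counting interval of the ratio held 1. With the peak whose summit lay nearest the start, the median was 0.04, no member was past 1.5-fold in either direction, and all 59 intervals held 1. Past 0.32 on the log2 scale, 5 were then higher and 1 lower, so these counts turned with the choice of peak. The background shares were taken with the tallest peak only.

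**Figure D4:**
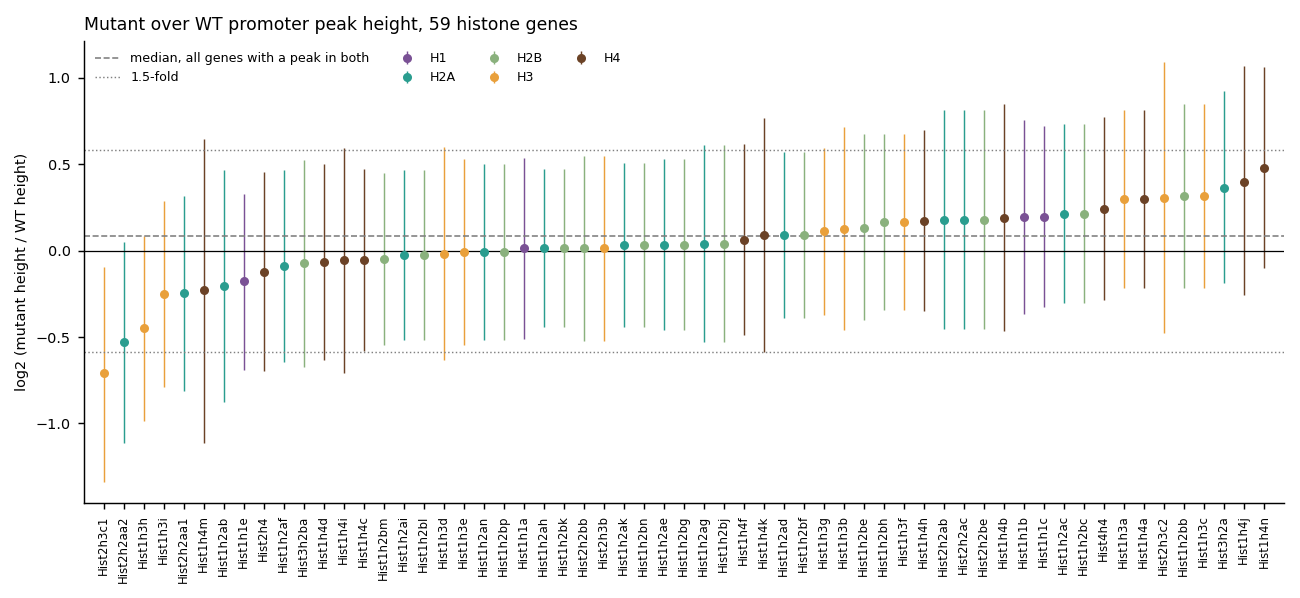
log2 ratio of mutant to WT height for the 59 histone genes with a peak in both lists, in rising order and coloured by class. Bars are exact 95% intervals for counting error of 1 pooled list against another, the dashed line is the median over all protein-coding genes (0.09) and the dotted lines are 1.5-fold. Of these bars only that of Hist2h3c1, where the lists read different peaks, leaves out 0.

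The 4 largest falls were Hist2h3c1 (-0.71), Hist2h2aa2 (-0.53), Hist1h3h (-0.45) and Hist1h3i (-0.25). The tallest WT and mutant peaks overlapped in 56 of the 59 members. At Hist2h3c1, Hist1h3h and Hist1h4m the value sets different peaks against each other. The tallest WT peak near Hist2h3c1, with a pileup of 61, was that of Hist2h2aa1 with its summit at -1182 bp from the start, and the mutant peak of 37 had its summit 17 bp from the start. With summits kept within 1 kb, Hist2h3c1 had 39 in WT and 37 in mutant, a log2 ratio of -0.06, and Hist1h3h had 49 and 53, a log2 ratio of 0.13. Hist2h2aa2 had 64 in WT and 44 in mutant at summits 39 and 35 bp upstream, with a ratio of 0.694 (exact 95% CI 0.462 to 1.04). Hist1h3i had 66 and 55, with a ratio of 0.842 (0.578 to 1.22). Neither interval left out 1.

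The 4 largest rises were Hist1h4n (0.48), Hist1h4j (0.40), Hist3h2a (0.36) and Hist1h2bb (0.32), the last read from the peak it shares with Hist1h3c. Hist1h4n had a pileup of 45 in WT and 62 in mutant at summits 42 and 39 bp downstream, with a ratio of 1.39 (exact 95% CI 0.933 to 2.09). The nearest het peak, of 14, lay 326 bp from this start. Hist1h4j had 36 in WT and 47 in mutant. Hist3h2a had 51, 72 and 65. At the start of Hist1h3c itself, a separate WT peak of 38 faced a mutant peak of 52 and a het peak of 53.

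Some members have near-identical copies elsewhere. In 10 members, 50% or more of the 76-base stretches within 250 bp of the start recur in the genome (background 4.99%). They are the 4 genes of the pairs without a peak, Hist1h4m, Hist1h4n, and Hist2h3c1, Hist2h3c2, Hist2h2aa1 and Hist2h2aa2 of the mirrored part of Hist2. Of these 10, 6 had a WT peak, 4 a het peak and 6 a mutant peak, while 53 of the other 57 had one in each list. With the tallest peaks, the log2 ratios of mutant to WT of the 6 had an SD over genes of 0.46 and a median of -0.24, against 0.16 and 0.04 in the 53. Taking the peaks nearest the start removes the mismatch at Hist2h3c1 but not that at Hist1h4m, whose WT and mutant peaks are still different ones. The SD was then 0.37 and the median -0.14 in the 6 (range -0.53 to 0.48). In the 53 they were 0.15 and 0.04 (range -0.25 to 0.47). The mutant list has 76-base tags and the WT list longer ones, so the share of tags that could be placed may differ between the lists here, and its part in these values was not tested. The part of the lower het tag count and other aligner in the missing het peaks was not tested either.

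**Figure D5:**
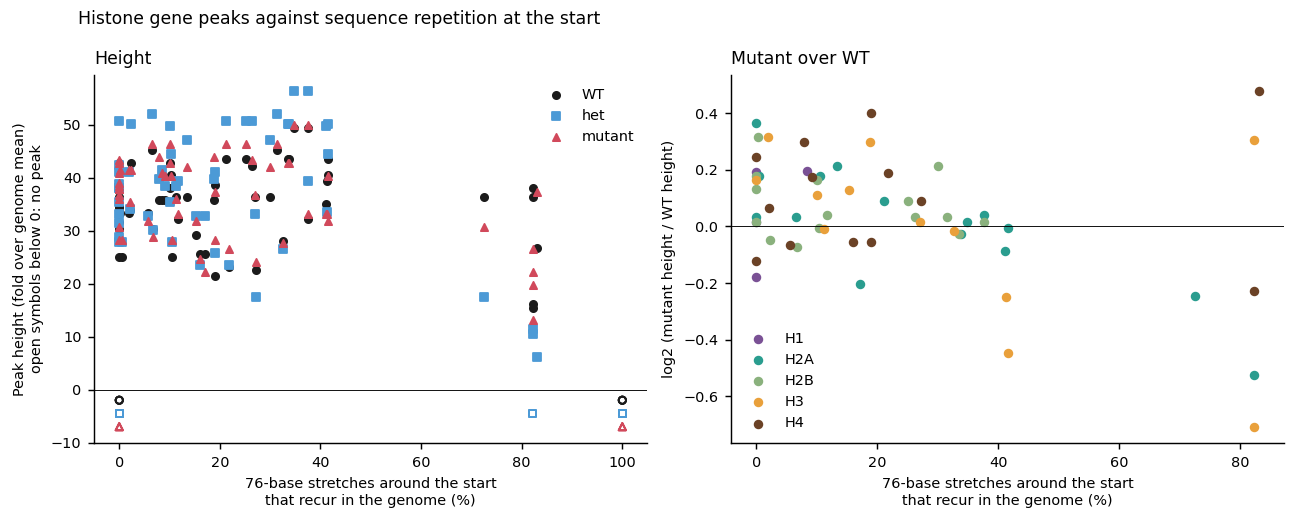
Left, peak height (multiples of the genome-mean pileup) and, right, log2 ratio of mutant to WT height, against the share of 76-base stretches within 250 bp of the start that recur in the genome (%). Open symbols below 0 are genes without a peak. The genes above 70% hold the 3 lowest het heights, which were read from peaks that do not cover the start, and the lowest ratio, at Hist2h3c1, sets different peaks against each other.

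The H4 pair shows the spread. Hist1h4m and Hist1h4n share a run of 285 bases of their promoter entries, and 82.2 and 83.1% of the 76-base stretches around their starts recur. In WT both had a peak at the start, of 26 and 45, with summits 45 and 42 bp downstream. In mutant Hist1h4n had one, of 62, and Hist1h4m had none. A separate peak, with its summit 489 bp downstream of Hist1h4m in WT and 497 bp in mutant, had 24 and 22. In het neither start was covered, and the nearest peaks, of 26 and 14, began 230 and 326 bp away. The Hist1h4n entry holds GGTCCG at -46 as Hist1h4c does and no CCAAT.
Hist1h4n, chr13:21832148-21832447, minus strand: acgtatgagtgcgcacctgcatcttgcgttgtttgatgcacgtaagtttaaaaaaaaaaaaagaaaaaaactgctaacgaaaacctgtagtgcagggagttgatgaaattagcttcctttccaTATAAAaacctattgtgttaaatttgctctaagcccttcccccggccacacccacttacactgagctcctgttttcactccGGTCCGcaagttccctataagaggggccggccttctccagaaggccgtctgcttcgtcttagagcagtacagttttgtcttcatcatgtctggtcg

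In Hist2, Hist2h3c1 and Hist2h3c2 shared a run of 231 bases and Hist2h2aa1 and Hist2h2aa2 one of 219. Hist2h2aa1 had a pileup of 61 (WT) and 51 (mutant) near the start, and 40 in het at a summit at -347 bp from the start. The remaining Hist2 genes lay outside the mirrored part. The tallest peak near Hist2h4 had 56, 66 and 51, and the one nearest its start 52, 62 and 49. The tallest near both Hist2h3b and Hist2h2bb had 61, 76 and 61, and the one nearest the Hist2h3b start 44, 58 and 43. Hist3h2ba, on chromosome 11, had 51, 69 and 48. For the tallest peaks of these 4 the log2 ratios were -0.12, 0.01, 0.01 and -0.07, all with intervals that held 1.

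Genes that make or handle histones outside the clusters gave similar median ratios of mutant to WT height. Of 10 histone genes listed as replication-independent, 9 had a peak in each list, with a median log2 ratio of 0.04 (-0.14 to 0.16) and none past 1.5-fold. The list includes H2afx, although H2afx holds the stem-loop letters described above. H2afz, which encodes the variant H2A.Z, had the highest pileup of them, 111 in WT, 187 in het and 108 in mutant. Of 23 genes for factors that act on histone gene expression or carry new histones, 22 had a peak in each list, with a median of 0.09, and 1 was past 1.5-fold. It was Eri1, an exonuclease that trims histone mRNA ends, with 41, 70 and 61 (0.59), a ratio of 1.503 and so barely past the cut. No counting interval was taken for it. Median heights in WT, het and mutant were 36.9, 35.8 and 36.1 for the replication-independent genes. Those of the factor genes were 41.1, 43.2 and 43.9, above the members. Median fold enrichments were 8.40, 8.36 and 8.56 for the first list and 9.78, 10.4 and 10.9 for the second, both above the members. Over all protein-coding genes, 65.3% (WT), 63.4% (het) and 66.1% (mutant) had a peak. Of those with both heights, 1.64% were more than 1.5-fold higher in mutant and 0.385% lower. Npat, the coactivator that gathers at histone clusters in S phase, had 93, 135 and 87 (-0.08), Slbp, which binds the stem-loop, 65, 98 and 83 (0.37), and Casp8ap2, which is needed for histone mRNA processing, 86, 142 and 94 (0.14). Hinfp, which binds H4 promoters, had 70, 81 and 63 (-0.14).

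The Chd7 gene itself held 28 WT, 20 het and 36 mutant peaks, and its promoter peak remained in each list. These peaks do not show whether the floxed exon was removed.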

How the data were processed

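The authors deposited 3 narrow-peak lists, called with MACS2 2.1.0.20150731 on pooled ATAC-seq libraries at a q-value cutoff of 0.05. Per the labels WT and mutant reads were aligned with STAR and het reads with Bowtie, while the study's methods describe Bowtie with uniquely aligned reads for ATAC-seq. Per the file headers WT and mutant tags were extended to 90 and 88 bp without a shift, and het tags to 200 bp with a shift of -100. The summit pileup is a signal deposited without scaling to depth, fold enrichment is a ratio deposited with a pseudocount of 1, and −log10 q values are as deposited by the authors.

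Starts were the 5′ ends of gene records of GENCODE M21. Height was the pileup divided by tags × extension / effective genome size. Ratio intervals are exact conditional binomial and shares have Wilson intervals, both at 95%. PCR copies are not independent molecules. Repeats are exact matches on either strand in the GRCm38.p6 primary assembly, without regard to read pairs. The search was tested on simulated data. All 67 members were matched to RefSeq, 62 to a promoter entry. Members, lists and the rule for named genes (per class the tallest and lowest WT peak, the 4 largest rises and falls, members lacking a peak in a list, all genes outside Hist1 and the testis genes) were chosen with earlier results of these data known. Other genes were named after their values were seen. Calculations used python 3.11.15, numpy 2.4.6, pandas 2.3.3, scipy 1.17.1, numba 0.67.0 and matplotlib 3.10.9.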

Additional observations from a re-analysis of the deposited data

How the results depend on the processing

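No paired analysis was possible because each list was called on pooled libraries, and for the same reason no replicate could be left out. The count of members with a promoter peak stayed within 1.5 times of its value in every list under each alternative (windows of 500 bp and 2 kb, any transcript start, summit within 1 kb, −log10 q of at least 5 or 10, RefSeq starts). With the summit within 1 kb, 1 member had a WT peak and no mutant peak (Hist1h1e, where the mutant peaks are joined). The reverse held for 1 member within 2 kb (Hist1h1t) and for 1 at −log10 q of at least 10 (Hist2h3c2). WT peaks without a het peak numbered 0 within 2 kb, 3 within 500 bp and 4 at −log10 q of at least 10.

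With the median of all promoters set to 0, the members' median log2 ratio turned from 0.035 to -0.051 on the log2 scale. Higher members numbered 3 past 0.32 on the log2 scale and 1 with summits within 1 kb (Hist1h3c, where the tallest mutant peak is that of Hist1h2bb, and the peaks at the start itself gave 0.47). Lower members numbered 3 past 0.32 on the log2 scale, 0 at 2-fold, 2 with the median set to 0, 0 with summits within 1 kb, 0 with the summit nearest the start and 0 where the mutant peak had to overlap the WT peak. By fold enrichment 1 member was lower, Hist1h3h and not Hist2h3c1. Past 0.32 on the log2 scale with the summit nearest the start, 5 members were higher and 1 lower. The median rank in WT, het and mutant was 78.1, 75.7 and 77.5 by fold enrichment, 94.99, 93.5 and 95.6 by pileup, and 49.9, 51.8 and 48.3 among promoter peaks. RefSeq starts, overlapping mutant peaks, summits nearest the start, and summits within 1 kb for the counts past 1.5-fold were added after seeing the data.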
